A study of Rattus norvegicus with 75 samples.

Results

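Heat shock proteins encoded by 10 genes were followed across every library of rat kidney tubule: Hsp90aa1, Hsp90ab1, Hspa1a, Hspa1b, Hspa8, Hsph1, Dnaja1, Dnajb1, Hspb1 and Hspe1. They were chosen by symbol, and 11 of the 32754 rows of the expression table carried one of the 10 symbols, because Hspa8 had a second row. Messenger RNA was measured in pieces of tubule taken by microdissection from the kidneys of male rats of the Sprague-Dawley strain that weighed 120 to 160 g and lived on a cycle of 12 h light and 12 h dark. Animals of the lithium groups were given food holding lithium chloride (40 mM per kg), and animals of the control groups food without it. Cortical collecting duct (CCD), in which principal cells take up water under vasopressin and intercalated cells handle acid and base, was sampled after 12 h (3 control and 2 lithium libraries), 24 h (3 of each), 36 h (3 of each) and 72 h (17 control, 19 lithium). From the cortical thick ascending limb (cTAL), the upstream segment that reabsorbs salt and is tight to water, there were 12 control and 10 lithium libraries, all of 72 h. Neither an age nor the hour of day of dissection is given in the labels.

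Heat shock proteins are chaperones, proteins that help other proteins fold, keep them from clumping and hand damaged ones on for removal. HSP70 proteins bind short unfolded stretches in a cycle driven by ATP, J proteins deliver the client and start the cycle, and nucleotide exchange factors end it. HSP90 proteins finish the folding of kinases and steroid receptors with the help of co-chaperones, small heat shock proteins hold unfolded proteins without ATP, and chaperonins fold them in a closed chamber. Under heat or other stress, heat shock factor 1 binds repeats of the letters GAA and TTC in the promoters of many of these genes and raises their transcription. In the kidney, chaperones of these families are known for helping cells stand high salt and urea.

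Of the 11 rows, 9 entered the tests, which required at least 1 TPM (a level scaled by transcript length and by the total of the library) in as many libraries as the smaller group compared. Hspa1a was listed at 0 in all 75 libraries. It is a near-identical neighbour of Hspa1b, so reads of the pair cannot be told apart, and the Hspa1b values may hold those of both. The second Hspa8 row, ENSRNOG00000032585, reached at most 0.47 TPM. One member goes against the heading of cytosolic proteins: Hspe1 encodes the small lid of the mitochondrial chaperonin. In bulk tissue, fewer cells of a type and less RNA per cell cannot be told apart in any of the values below.

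Neither the rat nor the dissection of a library is given in the labels, so the p-values rest on how libraries differ within a group, a spread that may be partly technical. The libraries at 72 h were divided within each treatment by 4 genes with 2 clear states of expression. These were RT1-CE16, Slc39a1, Mrps10 and Pfdn6, found after seeing the data. They gave 8 sets of consecutive numbers, 4 per treatment, with the same patterns in CCD and cTAL. A pattern alone did not mark a single set. Control set 3 and lithium set 1 had the same pattern, as did control set 4 and lithium set 4. Each early group held 1 pattern, so lithium and set cannot be told apart at 12, 24 and 36 h. The controls at 24 and 36 h had the same pattern. Results were therefore also computed over set means, in which each group at 12, 24 and 36 h is a lone value, assumed to vary like the sets at 72 h. Markers followed the labelled segment: the summed level of 8 principal cell markers was 11697 to 18909 TPM in control CCD and 67.8 to 172 TPM in control cTAL at 72 h, and that of 6 thick ascending limb markers was 620.1 to 1408 TPM and 52751 to 88674 TPM.

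TPM is per length, so levels can be set side by side between genes. In control CCD at 72 h (n = 17 libraries) the most abundant member was the constitutive HSP90 gene Hsp90ab1, with a mean of 773 TPM (SD 70.4). Hspe1 followed with 589 TPM (SD 123), then Hspa8, the constitutive HSP70 gene, with 313 TPM (SD 31.01) and Dnaja1, a J protein that serves it, with 309.6 TPM (SD 43.8). The levels of Hspa8 and Dnaja1 differed by less than their spread. Hspb1, the small heat shock protein HSP27, had 166 TPM (SD 33.4), Dnajb1, a J protein induced by heat, 120.2 TPM (SD 20.0), and Hsph1, the HSP110 exchange factor, 62.8 TPM (SD 14.9). The heat-inducible HSP70 gene Hspa1b had 22.6 TPM (SD 10.9) and the inducible HSP90 gene Hsp90aa1 4.94 TPM (SD 0.775). The Hspa1b level was the most variable of the 9 among these controls, with a coefficient of variation of 48.2%, against 9.10% for Hsp90ab1 and 9.90% for Hspa8.

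The RefSeq promoter table of the GRCr8 assembly, which is not the build of the expression values, held 8 of the 10 genes. Those of Hsp90aa1 and Hspa1b were missing. The 250 bases before the start were searched for the heat shock factor letters GAANNTTC and TTCNNGAA, each of which reads the same on both strands, and for the 3-unit motif of 13 letters in which these overlap, GAANNTTCNNGAA or, on the other strand, TTCNNGAANNTTC. The 3-unit motif stood in 3 of the 8 promoters (Hspa8, Hsph1 and Hspe1) and in 0.597% of 27455 promoters of the same length. A 2-unit motif of either kind stood in 6 of the 8, the other three being Dnaja1, Dnajb1 and Hspb1, and in 13.2% of all. No match was found in the windows of Hsp90ab1 and Hspa1a. RefSeq gives Hspa1b among the other names of Hspa1a, so which gene of this pair the window belongs to among the rows of the expression table is uncertain. Shown are the promoters with the 3-unit motif, of genes that rose at 36 h, and that of Hspb1, whose values went the other way. Other genes that rose had no match (Hsp90ab1) or, like Hspb1, only 2-unit matches (Dnaja1 and Dnajb1). The part of the motifs in the differences was not tested. Capitals mark the matches.
Hspa8, GRCr8 chr8:50080264-50080513, plus strand: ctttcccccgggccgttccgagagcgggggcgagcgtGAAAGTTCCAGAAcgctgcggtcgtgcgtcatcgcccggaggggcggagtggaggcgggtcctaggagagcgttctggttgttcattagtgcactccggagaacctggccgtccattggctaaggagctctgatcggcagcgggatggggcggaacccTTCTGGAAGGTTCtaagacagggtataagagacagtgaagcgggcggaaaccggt
Hsph1, GRCr8 chr12:10427118-10427367, plus strand: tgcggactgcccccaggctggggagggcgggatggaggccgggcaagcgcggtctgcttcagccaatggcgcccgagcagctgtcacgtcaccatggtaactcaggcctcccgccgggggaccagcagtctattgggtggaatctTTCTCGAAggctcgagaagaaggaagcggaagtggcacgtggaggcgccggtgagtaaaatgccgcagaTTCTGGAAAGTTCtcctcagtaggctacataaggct
Hspe1, GRCr8 chr9:64084077-64084326, plus strand: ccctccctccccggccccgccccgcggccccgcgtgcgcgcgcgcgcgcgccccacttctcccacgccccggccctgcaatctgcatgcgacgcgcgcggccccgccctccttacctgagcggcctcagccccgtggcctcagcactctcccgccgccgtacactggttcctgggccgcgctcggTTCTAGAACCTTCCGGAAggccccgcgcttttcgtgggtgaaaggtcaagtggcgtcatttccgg
Hspb1, GRCr8 chr12:26432302-26432551, minus strand: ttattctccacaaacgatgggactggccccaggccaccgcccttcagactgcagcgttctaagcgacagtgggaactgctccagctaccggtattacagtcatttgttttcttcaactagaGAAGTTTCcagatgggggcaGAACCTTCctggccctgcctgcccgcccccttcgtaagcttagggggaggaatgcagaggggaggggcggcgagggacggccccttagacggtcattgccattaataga
In Hspa8 the 3-unit matches began 213 and 55 bases before the start. The match in Hsph1 began 36 bases before it, and the overlapping matches in Hspe1 began 65 and 60 bases before it. Hspb1 held 2 separate GAANNTTC matches, 129 and 109 bases before the start.

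At 36 h of lithium most of these chaperones were higher in CCD. The control and the lithium libraries of that time were each 1 set, so lithium and set cannot be told apart. Of the 9 genes tested, 7 rose and none fell (limma, adjusted p under 0.05), where 34.8% of all 12069 genes tested were called, 25.5% higher and 9.28% lower. The HSP90 genes, the constitutive HSP70 gene, its exchange factor, both J proteins and the mitochondrial co-chaperonin were among them. The median log2 difference was 0.47 over the 9 genes and 0.13 over all genes tested. Differences were taken on log2(TPM + 1), and folds are ratios of TPM + 1. For low genes such as Hsp90aa1 both are smaller than they are in TPM.

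Hsp90aa1 stood at 3.87, 3.31 and 3.6 TPM in the 3 control libraries and at 10.1, 10.4 and 9.85 TPM in the 3 lithium libraries. Every lithium library was above every control, with a 2.42-fold difference in TPM + 1 (log2 1.28, SE 0.155, adjusted p = 6.60e-06). For Hspa8 the controls had 224, 208 and 183 TPM and the lithium libraries 419, 382 and 384 TPM. The groups lay far apart, with a 1.93-fold difference (log2 0.95, SE 0.0858, adjusted p = 2.16e-07). Hsph1, which opens the nucleotide pocket of HSP70, was at 44.8, 48.7 and 32.6 TPM in controls and 77.8, 76.0 and 73.5 TPM under lithium. It rose 1.81-fold (log2 0.85, SE 0.123, adjusted p = 4.43e-05), again without overlap. Its control means were 62.4, 59.9, 42.0 and 62.8 TPM at 12, 24, 36 and 72 h, lowest at 36 h. Its lithium means at those times were 78.2, 68.4, 75.8 and 68.3 TPM, with no peak at 36 h.

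Hspe1 was at 389, 439.8 and 606 TPM in the controls and at 858, 750.2 and 806 TPM under lithium (log2 0.77, SE 0.133, adjusted p = 2.44e-04). The third control was the high one, and still below each lithium library. Hsp90ab1 had 688, 683 and 504 TPM in controls and 862, 841 and 833 TPM under lithium (log2 0.45, SE 0.106, adjusted p = 0.00354). Here the third control was the low one. The J protein Dnaja1 went from 276, 299 and 253 TPM to 381, 406 and 359.6 TPM (log2 0.47, SE 0.0888, adjusted p = 5.75e-04), and Dnajb1 from 159, 122 and 119 TPM to 185, 184 and 174 TPM (log2 0.45, SE 0.104, adjusted p = 0.00274). Neither had overlapping groups. All 7 genes that rose had every lithium library above every control, which 34.6% of all genes tested also had.

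The members that did not pass at 36 h were the heat-inducible HSP70 and the small heat shock protein. Hspa1b was at 38.9, 35.0 and 23.3 TPM in controls and 36.4, 38.4 and 44.7 TPM under lithium, and the groups overlapped (log2 0.32, SE 0.191, adjusted p = 0.219). Hspb1 was at 269.6, 237 and 179 TPM in controls and 194, 179.8 and 169.5 TPM under lithium, the opposite direction and also with overlap (log2 -0.32, SE 0.125, adjusted p = 0.0607). With each group as a lone value most of the 7 calls were lost, as were most calls of all genes. Median-of-ratios scaling moved the median of all genes by -0.15 and the split of all calls from 3078 higher and 1120 lower to 2142 and 2023; the 7 rises were still called, and Hspb1 was called lower (log2 -0.47, adjusted p = 0.00607), as it was without the third control (log2 -0.48, adjusted p = 0.00303).

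**Figure D1:**
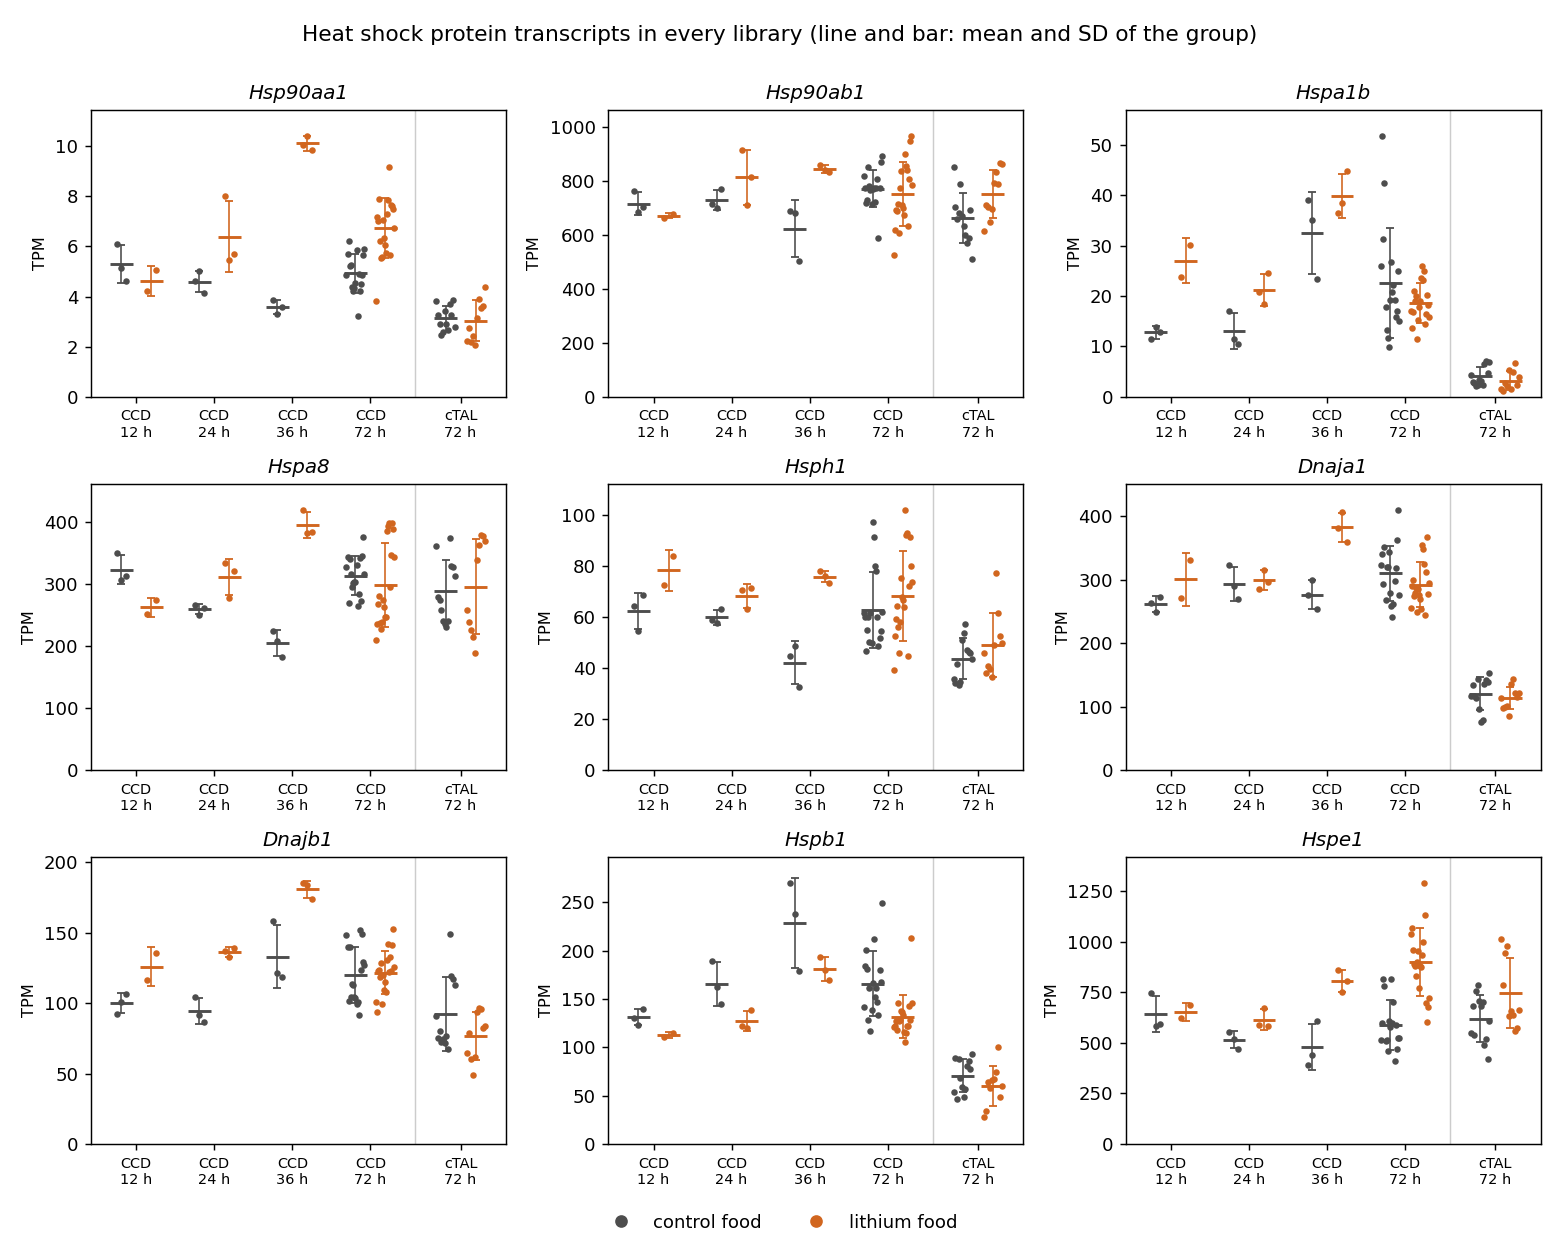
TPM of 9 heat shock protein genes in each of the 75 libraries (vertical axes, linear from 0), by segment, time and food (horizontal axes), with grey points for control food, orange points for lithium food, and the mean and SD of each group as a line and bar. At 36 h all 3 lithium libraries lie above all 3 controls for 7 of the genes, as they do for 34.6% of all genes tested, while Hspa1b, Dnaja1 and Hspb1 sit at a lower level in cTAL than in CCD.

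The control level of some members differed between the libraries of different times. In a moderated F test over the 4 control times in CCD, 4 of 9 members were called (Hspa8, Hspa1b, Hspb1 and Dnajb1), where 15.4% of all genes were. Over libraries 5 of 9 had an unadjusted p under 0.05. Over set means, where each early group is a lone value, the 4 calls were lost, as were nearly all calls of all genes. Hspa8 had control means of 323, 259, 205 and 313 TPM at 12, 24, 36 and 72 h (SD 23.2, 8.04, 20.7 and 31.01, adjusted p = 0.00462), so its lowest control level was at 36 h. Hsp90aa1, Hsp90ab1, Hsph1 and Hspe1, which were not called, also had their lowest control mean at 36 h. Dnaja1 and Dnajb1 did not. Hspa1b had control means of 12.8, 13.0, 32.4 and 22.6 TPM (SD 1.21, 3.53, 8.16 and 10.9, adjusted p = 0.00780), with the highest at 36 h. Hspb1 was also highest then, with 131, 166, 229 and 166 TPM (SD 8.29, 22.5, 46.2 and 33.4, adjusted p = 0.0132). Each early control group was 1 set, so time and set cannot be told apart there. The 4 control sets at 72 h alone had Hspa1b means of 37.9, 13.1, 22.2 and 18.4 TPM, a span like that between the times. Their means were 320, 304, 295 and 330 TPM for Hspa8 and 177, 136, 173 and 175 TPM for Hspb1. The Hspb1 call was lost without the first (adjusted p = 0.120) or the second control library of 36 h (adjusted p = 0.0699). That of Dnajb1 was lost without any of 6 of the 9 early control libraries: each of the 3 of 12 h, the second or the third of 24 h, or the first of 36 h (adjusted p from 0.0503 to 0.144).

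The control libraries at 36 h also had the highest summed level of 19 immediate early genes, 9548 to 13626 TPM, against 3640 to 7948 TPM at 72 h and values inside that range at 12 and 24 h. The part of these genes in the Hspa1b and Hspb1 levels was not tested. A contrast of the controls at 12 and 36 h with those at 24 and 72 h called 0 of 9 members (limma), with 0 at an unadjusted p under 0.05, where 2.54% of all genes were called, 1.39% higher and 1.15% lower.

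At 24 h of lithium, 4 of 9 members were called in CCD, 3 higher and 1 lower, where 25.7% of all genes were called, 19.9% higher and 5.77% lower. Dnajb1 was at 104, 91.8 and 86.4 TPM in controls and 137, 133 and 139 TPM under lithium. The groups did not overlap, and it rose by 0.53 on the log2 scale (SE 0.104, adjusted p = 0.00111). Hspa1b, at 17.1, 11.5 and 10.51 TPM against 20.7, 18.3 and 24.6 TPM, rose by 0.68 (SE 0.191, adjusted p = 0.0148). Hspa8, at 265, 249.9 and 262 TPM against 333, 278 and 320.4 TPM, rose by 0.26 (SE 0.0859, adjusted p = 0.0370). Each lithium library was above each control for these genes, as for 33.9% of all genes tested.

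Hspb1 fell at 24 h, from 189, 162 and 145 TPM to 122, 120.4 and 139 TPM (log2 -0.37, SE 0.125, adjusted p = 0.0368), again without overlap, where 10.4% of all genes had every lithium library below every control. Of the 4 calls, 1 to 3 stood when a library was left out: 1 (Dnajb1) without the second control, 2 without the first control, the third control, the first lithium library or the third. Median-of-ratios scaling moved the median of all genes by -0.15. The split of all calls went from 2372 higher and 687 lower to 1572 and 1426. After this scaling Hspa8 was not called (log2 0.10, adjusted p = 0.452). With each group as a lone value the 4 calls were lost, as were most calls of all genes. Of the 5 members not called, Hsp90aa1 was at 4.62, 5.01 and 4.16 TPM against 8.01, 5.46 and 5.69 TPM (log2 0.39, SE 0.155, adjusted p = 0.0785), and the others had log2 values of 0.25 (Hspe1), 0.19 (Hsph1), 0.15 (Hsp90ab1) and 0.03 (Dnaja1). In the same libraries 5 of 8 proximal tubule markers were lower under lithium and none was higher, with summed levels of 659.9 to 1990 TPM in controls and 172 to 248 TPM under lithium. Of 15 immediate early genes 9 were lower and 1 higher, with summed levels of 4069 to 6640 TPM and 2004 to 2198 TPM. Their part in the member differences was not tested.

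At 12 h, 1 of 9 members was called, where 11.7% of all genes were, 7.96% higher and 3.78% lower. Hspa1b was at 11.5, 13.9 and 12.9 TPM in controls and at 23.8 and 30.2 TPM in the 2 lithium libraries. Both lithium values lay above all controls, as for 23.2% of all genes tested, a 2.03-fold difference in TPM + 1 (log2 1.02, SE 0.214, adjusted p = 0.00483). Without the second lithium library the call was lost (log2 0.85, adjusted p = 0.0804), and it was lost with each group as a lone value (adjusted p = 0.756) and in a fit over all 10 groups (adjusted p = 0.350). Hspa8 was at 349, 306 and 313 TPM in controls and 251 and 273 TPM under lithium (log2 -0.30, SE 0.0960, adjusted p = 0.0549), and was called lower after median-of-ratios scaling (adjusted p = 0.0215) and after quantile normalization (adjusted p = 0.0282).

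Whether the lithium difference changed with time was tested directly in CCD, by an F test that the differences at 12, 24, 36 and 72 h are equal. It called 3 of 9 members, where 8.43% of all genes were called. Hspa8 had log2 differences of -0.30, 0.26, 0.95 and -0.10 at those times (adjusted p = 4.86e-04). Hsp90aa1 had -0.16, 0.39, 1.28 and 0.38 (adjusted p = 0.00153). Dnaja1 had 0.19, 0.03, 0.47 and -0.08 (adjusted p = 0.0468), a call that was lost without most single early libraries, for example the third control of 36 h (adjusted p = 0.156). Over set means, where each early group is a lone value, the 3 calls were lost, as were nearly all calls of all genes. Hspb1 had -0.22, -0.37, -0.32 and -0.32, below 0 at each time, and no change with time was detected (adjusted p = 0.995).

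At 72 h of lithium 3 of 9 members were called in CCD, where 37.3% of all genes were, 22.0% higher and 15.2% lower. Hspe1 and Hsp90aa1 were higher and Hspb1 lower. The median log2 difference was -0.05 over the members and -0.003 over all genes. Hspe1 ranged from 411 to 817 TPM (median 576) in the 17 control libraries, and from 603 to 1289 TPM (median 888) in the 19 lithium libraries. Of the lithium libraries 14 lay above every control, and 12 controls lay below every lithium library.

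Hspe1 rose 1.53-fold at 72 h (log2 0.62, SE 0.0890, adjusted p = 3.95e-07), and over set means it was still called (adjusted p = 0.0226). The set means were 678, 523, 673 and 503 TPM in controls and 945, 875, 1088 and 675 TPM under lithium, so 1 lithium set lay inside the range of the controls. Hspd1, which forms the chamber that Hspe1 closes and whose gene lies head to head with it, rose from 177 TPM (SD 24.2) to 225 TPM (SD 39.4) at 72 h (log2 0.34, SE 0.0743, adjusted p = 2.91e-04). At 36 h it rose by 0.79 on the log2 scale (SE 0.0680, adjusted p = 1.19e-07). Over set means neither Hspd1 call stood (adjusted p = 0.0634 at 72 h and 0.104 at 36 h).

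Hsp90aa1 ranged from 3.21 to 6.2 TPM (median 4.88) in controls and from 3.83 to 9.16 TPM (median 7.00) under lithium at 72 h. Of the 19 lithium libraries 13 lay above every control (log2 0.38, SE 0.0861, adjusted p = 5.57e-04). Over set means the call was lost (log2 0.40, adjusted p = 0.0826). Hspb1 ranged from 117 to 249 TPM (median 162) in controls and 105 to 213 TPM (median 127) under lithium. It was lower under lithium (log2 -0.32, SE 0.0790, adjusted p = 0.00125), and this call was also lost over set means (adjusted p = 0.0900).

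The other six members at 72 h in CCD had log2 differences between -0.17 (Hspa1b) and 0.11 (Hsph1), with adjusted p from 0.303 to 0.804. The 95% interval of Hspa8 ran from -0.26 to 0.07, that of Hsp90ab1 from -0.18 to 0.08 and that of Dnajb1 from -0.11 to 0.16. Without control set 2 Hspa1b was called lower (log2 -0.37, adjusted p = 0.0362), and without control set 3 Dnaja1 was (log2 -0.16, adjusted p = 0.0468). Hspa8 was more spread under lithium than in controls, from 209.9 to 397 TPM with an SD of 67.2, against 264 to 375 TPM with an SD of 31.01. Of the 19 lithium libraries 5 lay above every control and 8 below every control. In the same libraries 11 of 15 immediate early genes were lower under lithium, with summed levels of 711 to 2722 TPM against 3640 to 7948 TPM, and all 8 principal cell, all 7 intercalated cell and all 6 tested endothelial markers were lower (median log2 differences of -0.55, -0.50 and -1.08). The summed intercalated cell markers were at 7809 to 10843 TPM in controls and 6140 to 7996 TPM under lithium, and the endothelial ones at 16.9 to 197 TPM and 4.42 to 75.7 TPM. Their part in the member differences was not tested.

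**Figure D2:**
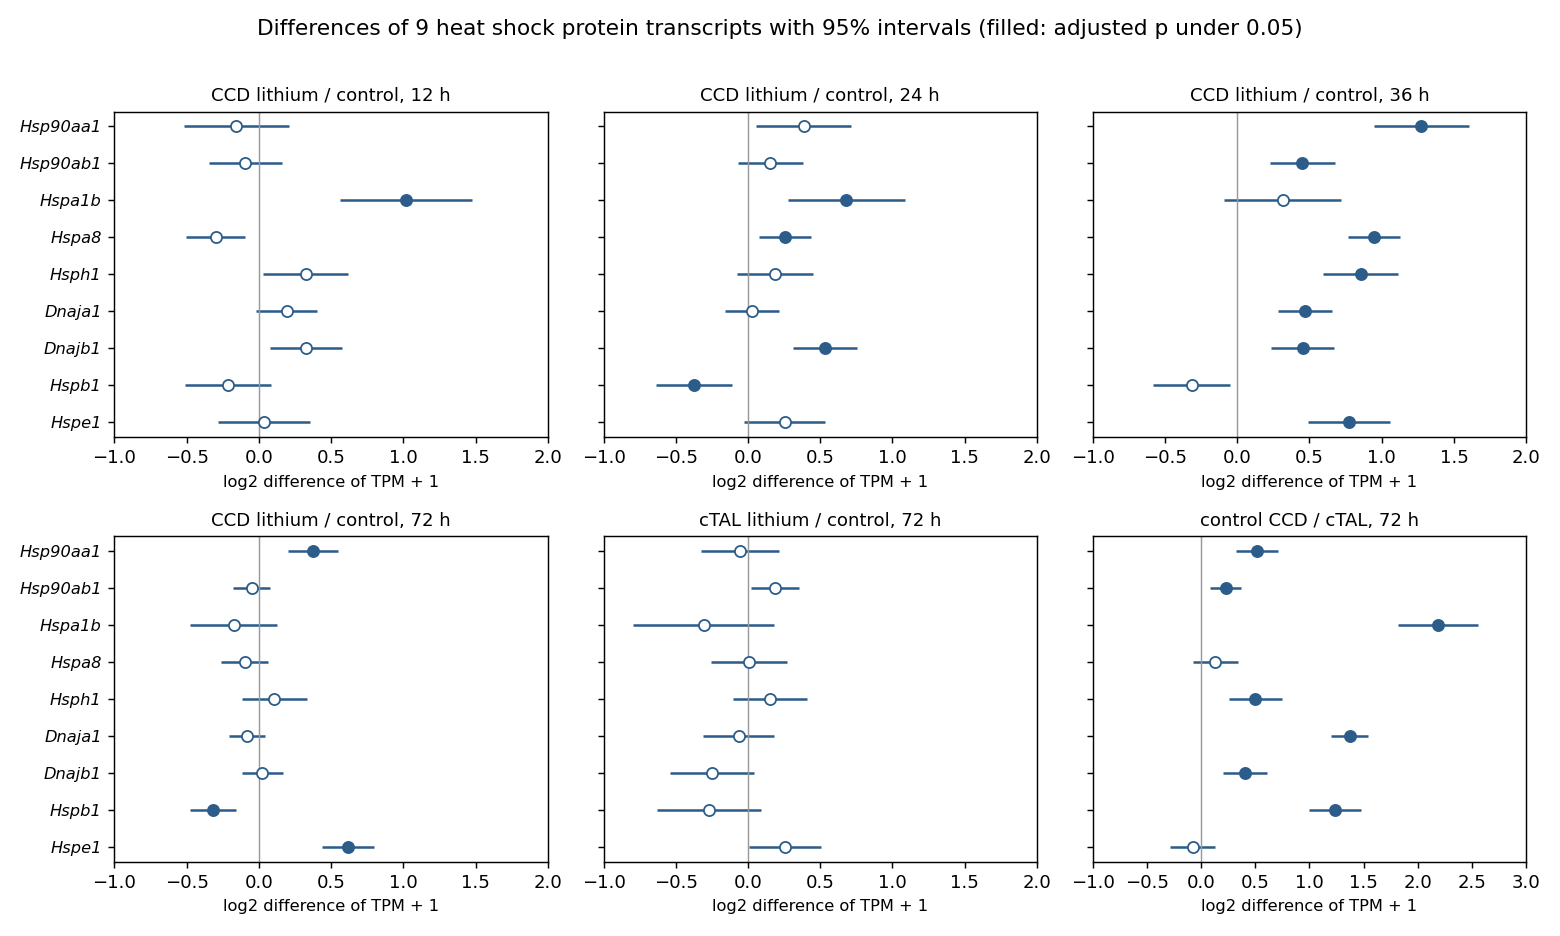
Log2 differences of TPM + 1 (horizontal axes) with 95% intervals for 9 heat shock protein genes (vertical axes) in 5 lithium comparisons and in control CCD against control cTAL. Filled points had an adjusted p under 0.05 in limma: 1, 4, 7 and 3 genes in CCD at 12, 24, 36 and 72 h, 0 in cTAL and 7 between segments. Of all genes tested, 11.7, 25.7, 34.8 and 37.3% were called in CCD, 0.701% in cTAL and 68.4% between segments.

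In cTAL no member was called after 72 h of lithium (limma), where 0.701% of all genes were, and 2 of 9 had an unadjusted p under 0.05. Those were Hsp90ab1, at 513 to 853 TPM (median 667) in 12 controls and 615 to 866 TPM (median 753) in 10 lithium libraries (log2 0.19, SE 0.0808, adjusted p = 0.331), and Hspe1, at 419 to 786 TPM (median 644) and 558 to 1012 TPM (median 660.0) (log2 0.25, SE 0.120, adjusted p = 0.384). The groups overlapped for every member. The 95% interval for Hsp90aa1 ran from -0.33 to 0.22 and that for Hspb1 from -0.63 to 0.09, so a fall of Hspb1 as large as in CCD lay within it.

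The lithium difference in CCD was set against that in cTAL in a single model. It called 1 of 9 members, where 15.3% of all genes were called, 11.8% with a larger and 3.44% with a smaller value in CCD. Hsp90aa1 differed by 0.43 on the log2 scale (SE 0.139, adjusted p = 0.0249), with means of 4.94 and 6.73 TPM in control and lithium CCD and 3.13 and 3.03 TPM in cTAL. The call was lost over set means (adjusted p = 0.425), with the sets paired (adjusted p = 0.333), after median-of-ratios scaling (adjusted p = 0.0588), after quantile normalization (adjusted p = 0.295), and without control set 3 (adjusted p = 0.0544), control set 4 (adjusted p = 0.105) or lithium set 2 (adjusted p = 0.152). After median-of-ratios scaling, which moved the median of all genes by -0.10 and the split of all calls from 1550 and 450 to 1109 and 857, Hsp90ab1 was called in its place, with a lower value in CCD (log2 -0.34, adjusted p = 0.00718, against -0.24 and 0.121 without it). Hspe1 differed by 0.36 (interval 0.06 to 0.66, adjusted p = 0.101) and was called without control set 1 (adjusted p = 0.0413). Hspb1 differed by -0.05 (interval -0.40 to 0.30).

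Without lithium, the segments differed in the inducible HSP70, a J protein and the small heat shock protein. Of 9 members 7 were higher in control CCD than in control cTAL and none was lower, where 68.4% of all genes were called, 49.8% higher and 18.6% lower. The median log2 difference was 0.50 over the members and 0.28 over all genes. Hspa1b ranged from 9.81 to 51.7 TPM (median 19.2) in CCD and from 2.13 to 7.03 TPM (median 3.20) in cTAL. The difference was 4.55-fold in TPM + 1 (log2 2.19, SE 0.186, adjusted p = 3.32e-16). The ranges did not overlap.

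Dnaja1 ranged from 242 to 409.9 TPM (median 318) in CCD and from 76.1 to 153 TPM (median 126) in cTAL (log2 1.37, SE 0.0852, adjusted p = 3.30e-22). Hspb1 ranged from 117 to 249 TPM (median 162) and from 46.1 to 93.4 TPM (median 73.2) (log2 1.24, SE 0.121, adjusted p = 7.31e-14). Neither pair of ranges overlapped, and 9.06% of all genes tested had every CCD library above every cTAL library. Smaller log2 differences were called for Hsp90aa1 (0.52), Hsph1 (0.50), Dnajb1 (0.40) and Hsp90ab1 (0.23). No difference was called for Hspa8, with a 95% interval of -0.07 to 0.34, or Hspe1, with one of -0.29 to 0.13.

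Median-of-ratios scaling moved the median of all genes by -0.27 in this comparison, and the split of all calls from 5937 higher and 2216 lower to 3596 and 3496. Under it 5 members were higher and 1 lower: Hsp90ab1 turned to -0.06 and Hspa8 to -0.15 without a call, Dnajb1 was no longer called (0.12), and Hspe1 was called lower in CCD (-0.36, adjusted p = 0.0214). Quantile normalization gave the same split of 5 and 1. Over set means 5 members were called and with the sets paired 6, in each case higher in CCD. Of all 11925 genes tested, 5702 were called over set means (4083 higher) and 6411 with the sets paired (4588 higher). The summed level of 19 immediate early genes was 3640 to 7948 TPM in control CCD and 371 to 2301 TPM in control cTAL, and 12 of the 15 tested were higher in CCD. That of 8 immune markers was 16.2 to 580.4 TPM in CCD and 1994 to 6063 TPM in cTAL, and all 8 were higher in cTAL. The part of either list in the member differences was not tested.

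At 72 h the sets of libraries differed in their mean levels of some members. Under lithium the 4 set means of Hspa8 were 243, 254, 367 and 369 TPM in CCD and 248, 209.7, 351 and 375 TPM in cTAL. Sets 3 and 4 were thus high, and sets 1 and 2 low, in tubules of either kind. The set means of Dnajb1 in controls were 133, 109, 98.9 and 136 TPM in CCD and 91.0, 75.6, 72.0 and 125 TPM in cTAL. Control sets 1 and 4 were the higher ones in both.

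The set means in CCD were set against those in cTAL for all 13070 genes tested that varied between sets, as the correlation over the 8 sets of the log2 deviations from the treatment mean. An exact two-sided permutation test used the 576 arrangements of sets within treatments, which can go no lower than p = 0.00174, with adjustment over all these genes. None of the 9 members passed it, by Pearson's r or by Spearman's rho, and neither did any other gene (0% called; smallest adjusted p of any gene by r 0.355). By r, 5 of 9 members had an unadjusted p under 0.05, where 9.34% of all genes had one. The median r was 0.787 over the members and 0.287 over all genes, and r was above 0 for 8 of 9 members and for 71.3% of all genes. All 8 sets deviated in the same direction in both segments for 4 members (Hsp90aa1, Dnaja1, Dnajb1 and Hspa8) and for 3.31% of all genes.

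For Hsp90aa1 Pearson's r was 0.958 (exact p = 0.00868, adjusted p = 0.395) and Spearman's rho 0.905 (exact p = 0.0174, adjusted p = 0.5679). For Dnaja1 r was 0.941 (exact p = 0.00868, adjusted p = 0.395) and rho 0.905 (exact p = 0.0156, adjusted p = 0.5679). For Dnajb1 r was 0.894 (exact p = 0.0156, adjusted p = 0.425) and rho 0.881 (exact p = 0.00694, adjusted p = 0.519). For Hspa8 r was 0.858 (exact p = 0.0434, adjusted p = 0.512) and rho 0.857 (exact p = 0.0556, adjusted p = 0.605), and for Hsph1 r was 0.787 (exact p = 0.0312, adjusted p = 0.483) and rho 0.595 (exact p = 0.156, adjusted p = 0.696). Without the 2 sets farthest from the median in CCD, r of these 5 genes was 0.969, 0.748, 0.863, 0.871 and 0.510. The other four had r of 0.509 (Hsp90ab1), 0.327 (Hspe1), 0.206 (Hspa1b) and -0.0309 (Hspb1). The pairing of sets across segments rests on the 4 genes named above, none of which is a member, and control set 1 of cTAL is a single library.

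**Figure D3:**
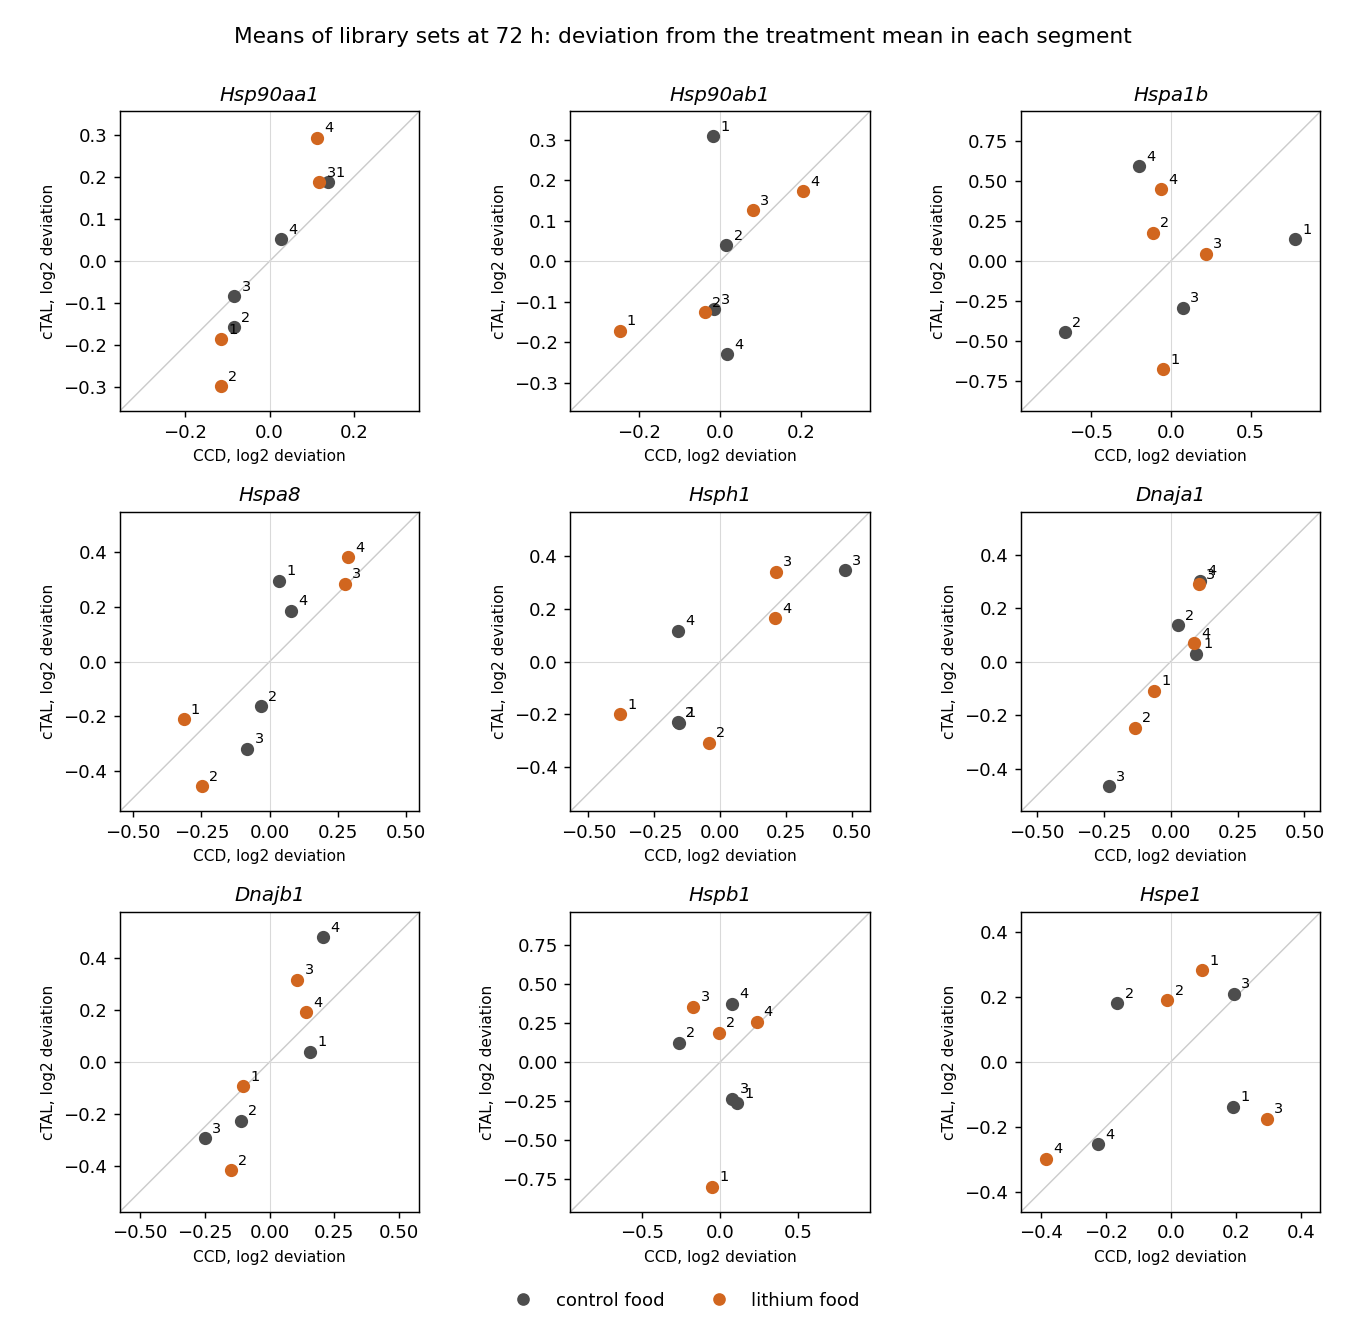
Mean log2(TPM + 1) of each library set at 72 h as a deviation from the mean of its treatment, in CCD (horizontal axes) and cTAL (vertical axes), for 9 genes, with grey points for the 4 control sets and orange points for the 4 lithium sets, numbered within treatment, and a grey line of equality. All points of Hsp90aa1, Dnaja1 and Dnajb1 lie in the lower left and upper right of their panels (r of 0.958, 0.941 and 0.894 over 8 sets), and those of Hspb1 are scattered (r of -0.0309).

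Other chaperone genes were counted in lists by family. At 36 h in CCD, 12 of 16 HSP90 co-chaperones rose and none fell, where 25.5% of all genes rose. Ahsa1, which speeds the ATPase of HSP90, rose by 0.68 on the log2 scale (SE 0.0659, adjusted p = 4.70e-07), Stub1, the ubiquitin ligase CHIP, by 0.66 (SE 0.0662, adjusted p = 6.79e-07) and Fkbp4, which helps steroid receptors mature, by 0.76 (SE 0.0763, adjusted p = 6.92e-07). All 8 subunits of the cytosolic chaperonin CCT, which folds actin and tubulin, rose at 36 h, among them Cct6a by 0.71, Cct4 by 0.57 and Tcp1 by 0.52. Among 12 other J proteins 7 rose, among them Dnajc9, a histone chaperone, from 78.9 TPM (SD 6.32) to 200.2 TPM (SD 8.65). Of 6 other HSP70 and HSP110 genes 2 rose, a share near that of all genes: Hspa14 by 1.05 and Hspa4l by 0.44. Of 11 mitochondrial chaperones 5 rose, among them Hspd1 and the protease Lonp1 (0.59). The list medians were 0.61 for co-chaperones and 0.48 for CCT, beside 0.13 over all genes.

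Of 6 other small heat shock proteins 2 fell at 36 h, Hspb8 by 1.04 and Hspb6 by 0.36 on the log2 scale, and none rose. Of all genes tested, 9.28% fell and 25.5% rose. None of the 3 tested genes for heat shock factors and their binding protein was called at 36 h (limma), and 1 had an unadjusted p under 0.05, with log2 differences of 0.32 for Hsf1, 0.29 for Hsf2 and -0.0030 for Hsbp1. At 12 h Hsbp1, which binds heat shock factor 1, rose by 0.25 (SE 0.0660, adjusted p = 0.0185), a call lost with each group as a lone value (adjusted p = 0.8996). All 3 genes were higher in control CCD than in control cTAL, Hsf2 by 0.78, Hsbp1 by 0.40 and Hsf1 by 0.38. In that comparison 49.8% of all genes were called higher, and the median log2 difference of all genes was 0.28. Over set means Hsf1 was no longer called (limma, adjusted p = 0.136). At 36 h 3 of 7 nucleotide exchange factors rose, and Cirbp, a cold-inducible RNA-binding protein, fell by 0.60. With each group as a lone value, Stub1, Ahsa1, Dnajc9 and Hspa14 were still called (adjusted p of 0.0272, 0.0316, 0.00204 and 0.00273), and none of the CCT subunits, all 8 of which had differences above 0. No other gene of the 9 chaperone lists was called that way at 36 h. The summed principal cell markers were at 18028 to 21570 TPM in controls and 9020 to 9931 TPM under lithium at 36 h, with all 8 lower, 4 of 7 intercalated cell markers were lower, and 11 of 15 clock genes were higher. Their part in these counts was not tested.

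At 72 h in CCD all 8 CCT subunits rose, Cct5 by 0.30 (SE 0.0472, adjusted p = 1.77e-06), Cct6a by 0.38 and Cct4 by 0.32, and 8 of 16 co-chaperones rose (all genes: 22.0%), among them Stub1 (0.40), Ahsa1 (0.28) and Ppid (0.40). Of 12 J proteins 4 rose, Dnajc9 by 0.51, and Dnajb2 fell by 0.26. Of 6 other small heat shock proteins Hspb6 fell, from 83.6 TPM (SD 13.8) to 50.5 TPM (SD 8.79). Over set means 4 CCT subunits, 3 co-chaperones, the exchange factors Bag1 and Hspbp1, Dnajc9, Hspa14 and Hspb6 were still called, and no other gene of these lists was. Of all 11644 genes tested, 1260 were called higher and 499 lower over set means. In cTAL none of the 72 tested genes on these chaperone lists was called (limma), where only 0.701% of all genes were. Of the 72 genes, 5 had an unadjusted p under 0.05.

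At 12 h 2 of 16 co-chaperones rose, where 7.96% of all genes did: Stub1 by 0.65 and Fkbp5 by 0.75. Dnajc9 rose by 0.65, no CCT subunit was called (limma) or had an unadjusted p under 0.05, and the mitochondrial chaperones Hspd1 and Hspa9 fell by 0.37 and 0.51 on the log2 scale. With each group as a lone value, none of the 71 tested genes on the chaperone lists was called at 12 h (limma; 19 had an unadjusted p under 0.05 over libraries), and of all genes 0 were called higher and 3 lower. At 24 h 7 of 16 co-chaperones and 3 of 8 CCT subunits rose, where 19.9% of all genes did. Dnajc9 rose by 1.44, Hspa14 by 0.70 and Hspb8 by 1.27. Of the chaperone lists only Dnajc9 and Hspa14 were still called at 24 h with each group as a lone value (adjusted p of 0.00521 and 0.0490). Between the segments, 3 of 6 other small heat shock proteins were higher and 2 lower in control CCD, where 49.8% of all genes were higher and 18.6% lower. Cryab, alpha-B crystallin, was at 267 TPM (SD 95.2) in CCD and 5.52 TPM (SD 3.67) in cTAL, and Hspb6 at 83.6 TPM (SD 13.8) and 303 TPM (SD 44.9).

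**Figure D4:**
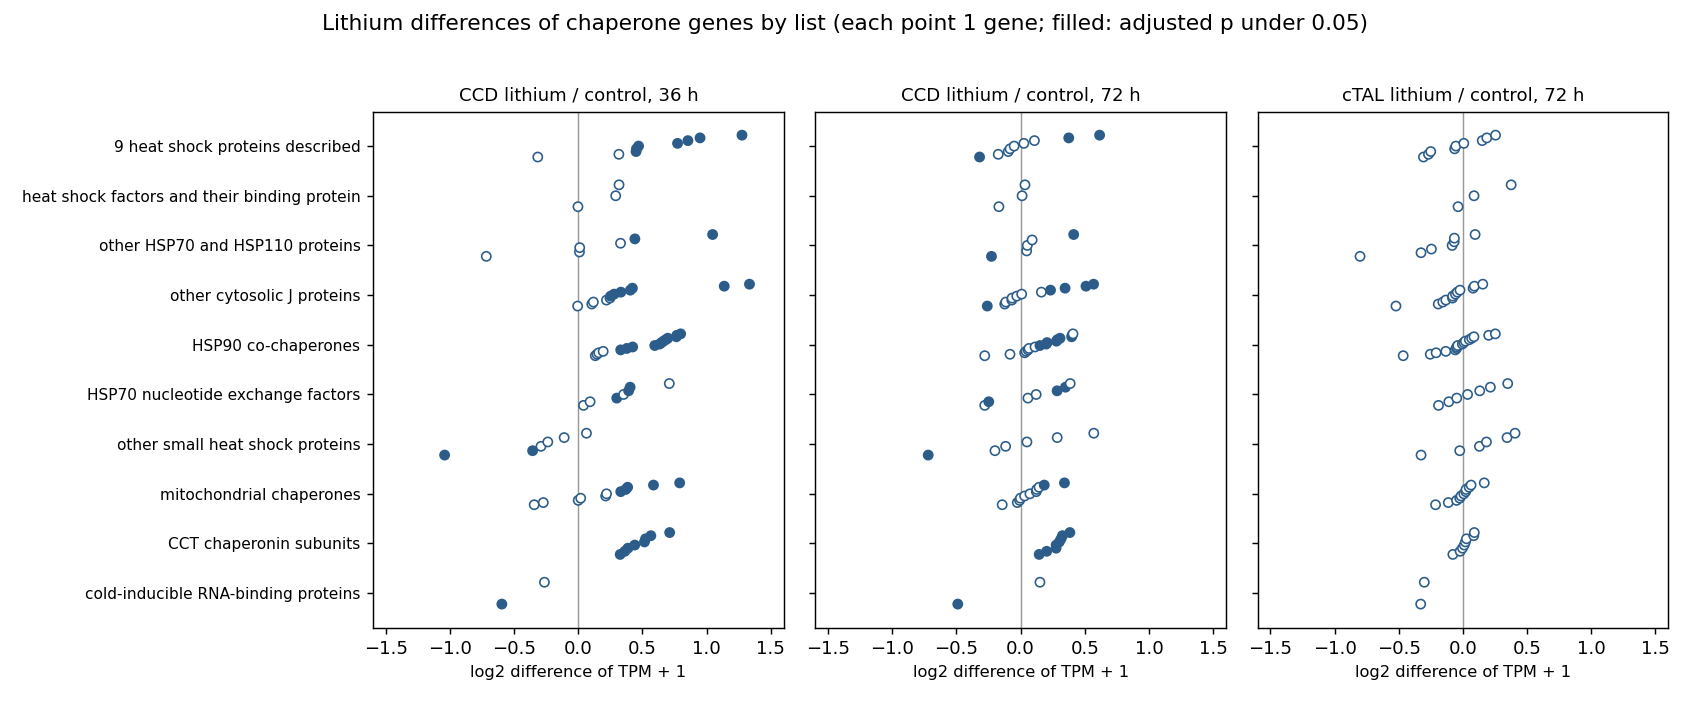
Log2 differences of TPM + 1 between lithium and control (horizontal axes) for each tested gene of 9 chaperone lists and for the 9 heat shock proteins described (rows), in CCD at 36 h, CCD at 72 h and cTAL at 72 h. Filled points had an adjusted p under 0.05: all 8 CCT subunits in CCD at both times, 12 and 8 of 16 co-chaperones, and none in cTAL. Of all genes tested, 34.8% were called in CCD at 36 h, 37.3% in CCD at 72 h and 0.701% in cTAL.

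The members varied together across the 10 groups only in part. Over the 10 group means of log2(TPM + 1), 32 of the 36 pairs of tested members had a Pearson r above 0, with a median of 0.561 and a range from -0.335 to 0.940. Groups of the same segment share most of their other transcripts, so these values are a description. The genes whose group means were most like the mean of the members, of 12226 genes ranked, were Cebpg (0.992), Gpbp1 (0.987), Atg16l1 (0.987), Trip10 (0.986) and Thap1 (0.985), with r in parentheses. Those most like Hsph1 alone were Rnf151 (0.968), Ddx55 (0.930), Hacd2 (0.924), Rexo2 (0.923) and Sgk494 (0.920). Rnf151 and Sgk494 had means of only 1.07 and 0.963 TPM over the 75 libraries, near the lowest level ranked.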

How the data were processed

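RNA of microdissected tubules was turned into cDNA with a SMARTer V4 kit and amplified for 15 cycles, per the labels' protocols. That kit does not mark the strand. STAR 2.5.2b, RSEM 1.2.31 and the build Rnor_6.0 are named in the submitters' processing notes. The authors deposited TPM values of 32754 genes in 75 libraries, with 2 decimals. TPM keeps no depth, so no counting interval is given, and the number of libraries sets how precise a value is.

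Groups came from the labels. Log2(TPM + 1) was fitted with limma 3.58.1 (R 4.3.3) with a mean-variance trend, two-sided, with Benjamini-Hochberg adjustment over all genes tested and a threshold of 0.05. Comparisons at 72 h used their own groups, those at 12, 24 and 36 h a joint fit of 6 early CCD groups, comparisons between segments the 4 groups at 72 h, and tests over time the 8 CCD groups. Permutations and figures used Python 3.11.15 with numpy 2.4.6, pandas 2.3.3, scipy 1.17.1 and matplotlib 3.10.9. The scripts were tested on simulated data. Alternatives were a pseudocount of 0.1, no filter or one at 5 TPM, median-of-ratios scaling, quantile normalization, no trend, a fit over all 10 groups, set means, a replicate block, Hspa1a and Hspa1b summed, and leaving out libraries or sets. Set means paired by set, and set means of the gene lists, were added after seeing the data. Promoters came from RefSeq (GRCr8).

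The members, gene lists and tests were chosen with earlier results of these data known. Named were all members, up to 3 called genes of smallest p per list and comparison, and the 5 most similar genes. The set correlations of all genes, and the shares of genes whose groups do not overlap, were also added after seeing the data. The heat shock factor genes at 36 h were not called and were named after their values were seen.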

Additional observations from a re-analysis of the deposited data

Results flagged for a closer look

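The lithium difference of Hsp90aa1 was larger in CCD than in cTAL at 72 h, by the test of the difference itself (limma, adjusted p = 0.0249), with log2 differences of 0.38 and -0.05. Lithium differences that changed between 12, 24, 36 and 72 h in CCD were found for Hspa8 (adjusted p = 4.86e-04), Hsp90aa1 (adjusted p = 0.00153) and Dnaja1 (adjusted p = 0.0468). These 4 calls were lost over set means, as were most calls of all genes. In the lithium cTAL group of 10 libraries, the only group of a size at which single far-off libraries were looked for, no library stood apart for any of the 9 members.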

How the results depend on the processing

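Of 1635 values of single members under the alternatives, 1470 kept direction and side of the threshold, 94 lost the call, 22 gained it and 49 turned sign, of which 2 were called without the alternative (Hsp90ab1 between segments, under both scalings). Over set means the members called went from 3 to 1 in CCD at 72 h, where calls of all genes went from 4338 to 1759. For the difference between segments in the lithium effect, members called went from 1 to 0 (0 with sets paired). There the calls of all genes went from 2000 to 485 (546 with sets paired). At 12, 24 and 36 h and in the tests over time, each early group was a lone value over set means. Calls fell there both among members and among all genes. At 12 h 2 members were called under median-of-ratios scaling, 2 under quantile normalization and 0 in a fit over all 10 groups (all genes: 1511, 1579 and 150). At 24 h there were 2 members with no filter and 0 in that fit (all genes: 2950 and 974). For control over time there were 2 members in that fit (all genes: 1288). Leaving out a library or set gave 1 to 3 members at 24 h, 0 to 2 for the difference between segments and 2 to 4 for control over time. Calls of all genes then ranged from 2337 to 2663, from 1460 to 2156 and from 1366 to 1915.

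Most same-numbered libraries did not deviate together. Control and lithium CCD libraries had correlations above 0.1 in 1 of 2 pairs at 12 h and 1 of 3 at 24 h. The counts were 0 of 3 at 36 h and 4 of 17 at 72 h. In cTAL 3 of 10 pairs were above 0.1 (highest 0.348), and between control CCD and control cTAL 3 of 12 (highest 0.216). The labels do not say what libraries of equal number share. With the replicate number as a block 2 members were called at 12 h in place of 1 (Hspa8, adjusted p = 0.0422), and the counts were 3, 4 and 7 in CCD at 72, 24 and 36 h, 0 in cTAL, 1 for the difference between segments in the lithium effect and 7 for control segments. Calls of all genes with the block were 1203 in CCD at 12 h, and 4230, 2981 and 4126 at 72, 24 and 36 h. There were 1 in cTAL, 8095 for control segments and 1932 for the difference between segments in the lithium effect. For that difference the block changed which member was called: Hspe1 (adjusted p = 0.0417) in place of Hsp90aa1 (adjusted p = 0.0525).

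Under median-of-ratios scaling the sign turned for Hspe1 -0.024 (from 0.037) for CCD at 12 h, Dnaja1 -0.13 (from 0.028), Hsp90ab1 -0.0058 (from 0.15) for CCD at 24 h, Dnaja1 0.024 (from -0.064), Hsp90aa1 0.010 (from -0.055) for cTAL at 72 h, Hsp90ab1 -0.058 (from 0.23), Hspa8 -0.15 (from 0.13) for control CCD against cTAL, Hspe1 -0.038 (from 0.0054) for the contrast of control times. Under quantile normalization the sign turned for Hsp90aa1 0.074 (from -0.055) for cTAL at 72 h, Hsp90ab1 -0.069 (from 0.23), Hspa8 -0.11 (from 0.13) for control CCD against cTAL, Hspe1 -0.0042 (from 0.0054) for the contrast of control times. Under set means the sign turned for Hspa8 -0.033 (from 0.0073) for cTAL at 72 h, Hspe1 -0.0012 (from 0.0054) for the contrast of control times. Under the replicate block the sign turned for Hspe1 -0.069 (from 0.0054) for the contrast of control times. Ranges on leaving out a library or set that crossed 0 were Hspa1b -0.37 to 0.070, Dnajb1 -0.055 to 0.11, Hsp90ab1 -0.11 to 0.051, Hspa8 -0.19 to 0.027 for CCD at 72 h; Hspe1 -0.032 to 0.15 for CCD at 12 h; Dnaja1 -0.033 to 0.097 for CCD at 24 h; Hspa8 -0.16 to 0.20, Dnaja1 -0.23 to 0.071, Hsp90aa1 -0.18 to 0.072 for cTAL at 72 h; Dnaja1 -0.11 to 0.074, Hspb1 -0.24 to 0.078, Hsph1 -0.17 to 0.066, Hspa1b -0.25 to 0.36 for the difference between segments in the lithium effect; Hspe1 -0.15 to 0.051 for control CCD against cTAL; Hspe1 -0.086 to 0.073 for the contrast of control times. The cause was not tested. TPM keeps no depth, so what depth limits could not be measured.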
